A study of Mus musculus with 4 samples.

Results

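The 10 genes described here, Fos, Fosb, Fosl2, Jun, Junb, Egr1, Egr2, Nr4a1, Nr4a2 and Ier2, encode transcription factors and regulators of the immediate early class. They were chosen by gene symbol from the 23235 symbols measured in islet RNA, and each had a value with status OK in every library. The RNA came from islets, the endocrine part of the pancreas, isolated from C57BL/6 mice. The 4 groups were refed KR, refed WT, fasted KR and fasted WT, where KR is the label of the mutant genotype and WT is wild type, and each group holds 1 library. In KR mice, as known from the study, arginines stand in for the lysines at which FoxO1 is acetylated, and every mouse of a KR group carries that allele. The study deals with deacetylated FoxO1, the use of fatty acids by beta cells and their insulin output. By the sample titles the fasted mice went without food for 48 h and the refed mice were then fed for 6 h, whereas the extraction protocol names a fast of 24 h, and the labels do not settle which is right. The same protocol describes pools of 3 mice per genotype, so no group has a replicate library.

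Immediate early genes are transcribed within minutes of a stimulus and need no newly made protein, because the factors that switch them on, among them CREB and SRF with its cofactors, already sit in the cell. Their transcripts are short-lived. Proteins of the FOS family pair with those of the JUN family to form the AP-1 factor, EGR proteins bind DNA through zinc fingers, and NR4A proteins are orphan nuclear receptors. In beta cells, glucose, calcium entry and cyclic AMP are known to induce members of each family.

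The values are FPKM, fragments scaled by transcript length and sequencing depth, with a deposited lower and upper bound about 2 standard errors away. From these bounds the libraries held an implied 11074797 fragments in refed KR, 18096754 in refed WT, 25711229 in fasted KR without Ins2, which has no value there, and 26407398 in fasted WT. The refed KR library was thus the shallowest, with a depth of 0.418 relative to fasted WT. The islet hormone genes Ins1, Gcg, Sst, Ppy and Iapp lay at an FPKM of 2652 or more in every library, so the tissue label held. Folds between single libraries are given with a 95% interval that covers counting error only. Such a fold has no check against a replicate.

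The members differed in where they were highest. Egr1, Fos and Fosb had their highest level in refed KR islets, and Nr4a2 was higher in both refed libraries. Fosl2, Jun and Ier2 were lower in both refed libraries, for Ier2 beyond counting error in WT only. Junb, Nr4a1 and Egr2 showed no fold between any pair of libraries compared here whose counting interval left out 1. The bar charts by library show these patterns side by side.

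**Figure D1:**
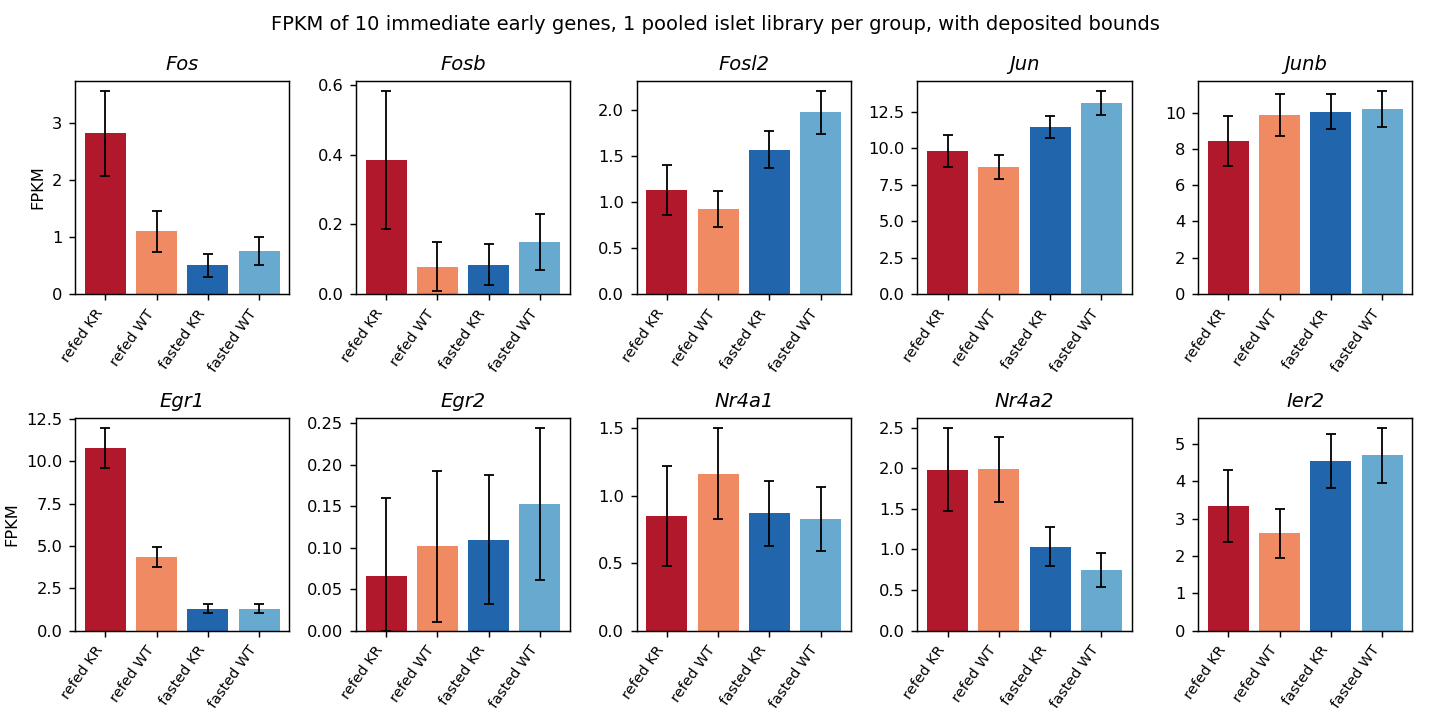
FPKM (vertical axis, one scale per gene) of the 10 immediate early genes in refed KR, refed WT, fasted KR and fasted WT islets; bars are single pooled libraries and error bars the deposited bounds. Egr1 stood at 10.8 in refed KR islets against 4.34 in refed WT islets and 1.31 and 1.30 in fasted KR and fasted WT islets.

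Egr1 encodes a zinc finger factor that is a standard marker of recent stimulation and lies on chromosome 18 at 35020861 to 35024610 (mm9). Its FPKM was 10.8 in refed KR (bounds 9.63 to 12.0), 4.34 in refed WT (3.76 to 4.93), 1.31 in fasted KR (1.05 to 1.57) and 1.30 in fasted WT (1.03 to 1.56). The refed KR library was the highest, refed WT was intermediate, and the fasted libraries could not be told apart within their bounds. The level was 8.26-fold higher in refed than in fasted KR islets (95% counting interval 6.58 to 10.4, from 338 and 99 fragments). In WT islets it was 3.35-fold higher after refeeding (2.63 to 4.30, from 222 and 97 fragments). Among the 11953 genes tested, Egr1 had the 8th highest refed to fasted ratio in KR and the 54th highest in WT, on log2(FPKM + 1).

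Fos encodes the founding partner of the JUN proteins in AP-1 and lies on chromosome 12 at 86814851 to 86818219 (mm9). Its FPKM was 2.82 in refed KR (bounds 2.08 to 3.56), 1.10 in refed WT (0.739 to 1.46), 0.502 in fasted KR (0.301 to 0.703) and 0.751 in fasted WT (0.504 to 0.998). The bounds of refed KR lay above those of the other 3 libraries, among which those of refed WT and fasted KR alone did not overlap. Refed KR was 5.61-fold above fasted KR (95% counting interval 3.46 to 9.36, from 58 and 25 fragments). The WT fold was 1.46 (0.903 to 2.38, from 37 and 37 fragments), an interval that holds 1.

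Fosb, a second FOS protein gene on chromosome 7 at 19888045 to 19895394 (mm9), was near the limit of detection. Its FPKM was 0.385 in refed KR, 0.0785 in refed WT, 0.0848 in fasted KR and 0.150 in fasted WT, from 15, 5, 8 and 14 fragments in the same order. The refed KR value was 4.54-fold that of fasted KR (95% counting interval 1.81 to 12.4), whereas the fold in WT was 0.523 (0.147 to 1.54). Like Fos, Fosb was thus highest in the refed KR library, at a level resting on few fragments.

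Fosl2 encodes FRA2, a longer-lived FOS family protein, and lies on chromosome 5 at 32438845 to 32460212 (mm9). Its FPKM was 1.13 in refed KR (bounds 0.862 to 1.40), 0.921 in refed WT (0.730 to 1.11), 1.57 in fasted KR (1.36 to 1.77) and 1.97 in fasted WT (1.74 to 2.20). Both refed libraries were lower than their fasted counterparts, whereas Fos was higher after refeeding beyond counting error in KR only. The fold was 0.724 in KR (95% counting interval 0.546 to 0.949) and 0.468 in WT (0.367 to 0.593).

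Jun, which encodes the main AP-1 partner of FOS and lies on chromosome 4 at 94715727 to 94718913 (mm9), was expressed at a higher FPKM than any FOS gene. Its FPKM was 9.80 in refed KR (bounds 8.70 to 10.9), 8.73 in refed WT (7.92 to 9.54), 11.5 in fasted KR (10.7 to 12.2) and 13.1 in fasted WT (12.3 to 13.9). Each refed library was lower than the fasted one of its genotype, with a fold of 0.855 in KR (95% counting interval 0.750 to 0.972) and 0.666 in WT (0.596 to 0.744). Junb, a JUN protein gene on chromosome 8 at 87500808 to 87502647 (mm9), was the flattest of the 10. Its FPKM was 8.42 in refed KR, 9.86 in refed WT, 10.05 in fasted KR and 10.2 in fasted WT, and its highest value was 1.21-fold its lowest.

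Nr4a2, which encodes the orphan receptor NURR1, lies on chromosome 2 at 56959637 to 56976414 (mm9). Its FPKM was 1.98 in refed KR (bounds 1.47 to 2.50), 1.99 in refed WT (1.59 to 2.39), 1.03 in fasted KR (0.794 to 1.27) and 0.747 in fasted WT (0.540 to 0.954). The refed libraries matched each other closely and the bounds of neither overlapped those of a fasted library. Refed exceeded fasted by 1.92-fold in KR (95% counting interval 1.34 to 2.73) and by 2.66-fold in WT (1.88 to 3.80). Its paralog Nr4a1, the NUR77 gene on chromosome 15 at 101097277 to 101105225 (mm9), stood at an FPKM of 0.848 in refed KR, 1.16 in refed WT, 0.868 in fasted KR and 0.827 in fasted WT. The bounds of Nr4a1 overlapped between all libraries, and the folds of refed over fasted were 0.977 in KR (0.559 to 1.65) and 1.40 in WT (0.921 to 2.14).

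Ier2, an immediate early gene for a nuclear protein without a known DNA-binding domain, lies on chromosome 8 at 87185230 to 87186751 (mm9). Its FPKM was 3.35 in refed KR (bounds 2.38 to 4.31), 2.60 in refed WT (1.94 to 3.27), 4.55 in fasted KR (3.83 to 5.28) and 4.69 in fasted WT (3.95 to 5.43). The fold of refed over fasted was 0.735 in KR (95% counting interval 0.521 to 1.02) and 0.555 in WT (0.406 to 0.749), so the difference exceeded counting error in WT only, and the difference between the 2 folds was not tested. Egr2, a zinc finger gene of the EGR family on chromosome 10 at 67000617 to 67004936 (mm9), was near the limit of detection, as was Fosb. Its FPKM was 0.0664 in refed KR, 0.102 in refed WT, 0.110 in fasted KR and 0.153 in fasted WT, from 2, 5, 8 and 11 fragments. The fold of refed over fasted was 0.605 in KR (0.0626 to 3.03) and 0.666 in WT (0.181 to 2.08), and no difference in Egr2 was detectable at this depth.

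The plot of refed over fasted folds sets the members against each other in both genotypes. In KR the counting interval left out 1 for 6 of the 10 members, 4 higher and 2 lower after refeeding. Among all tested genes above 0 in both libraries the same held upward for 29.2% and downward for 34.6%. In WT it left out 1 for 5 members, 2 higher and 3 lower, against 35.3% and 35.4% of all such genes. The 10 include Fosb, Egr2 and Nr4a1, which are not among the tested genes because their mean FPKM was under 1. These counts are given as a description and are no result about the members.

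**Figure D2:**
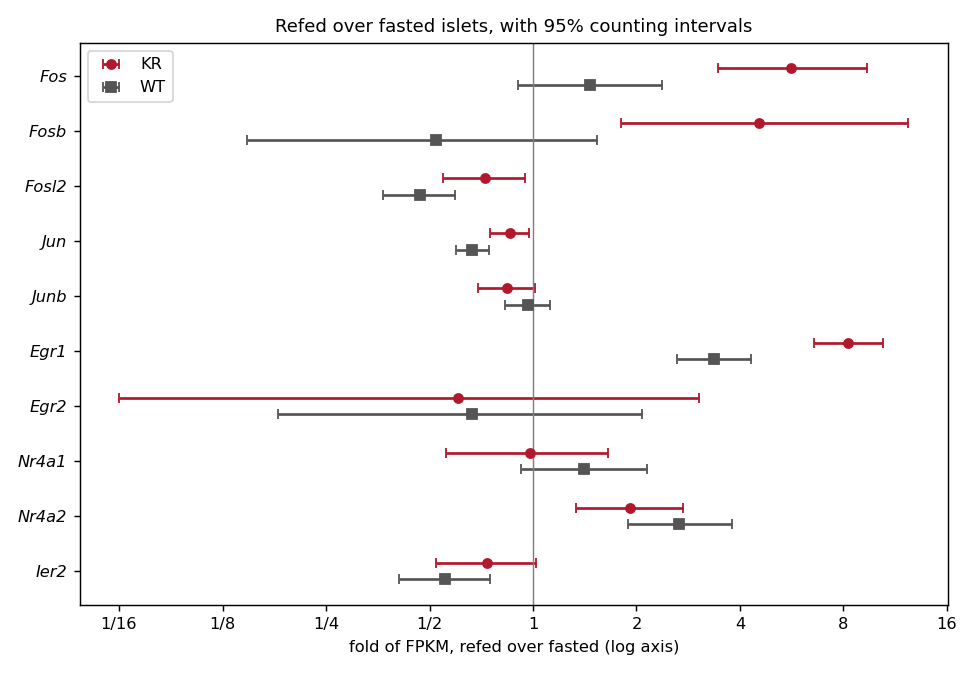
Fold of FPKM in refed over fasted islets (horizontal log axis) for each member in KR (circles) and WT (squares); points are folds of single libraries and bars 95% counting intervals. Egr1 reached 8.26 in KR and 3.35 in WT, and the KR and WT intervals did not overlap for Egr1, Fos, Fosb and Jun.

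By the 2-fold rule on log2(FPKM + 1), 2 of the 7 members with a mean FPKM of at least 1 were higher in refed than in fasted KR islets, Egr1 and Fos, beside 0.577% of 11953 tested genes. None was 2-fold lower, beside 1.75%. In WT, Egr1 alone was 2-fold higher, beside 1.11% of tested genes, and none was 2-fold lower, beside 2.4%. Fos passed the filter on low values through the refed KR library alone, since its mean FPKM without that library was 0.785, so its presence among the 7 is no support. Fosb, Egr2 and Nr4a1, with means of 0.175, 0.108 and 0.926, did not pass.

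The refeeding change shared by both genotypes was fitted over all 4 libraries with limma, which gives p-values adjusted by Benjamini-Hochberg over all 11953 genes. Of all tested genes 56.9% were called, 27.7% higher and 29.2% lower after refeeding, and 62.3% had an unadjusted p under 0.05. Of the 7 members tested, 3 rose, 3 fell and Junb did not pass (-0.14 ± 0.08 SE, adjusted p = 0.185 in limma). Egr1 rose by 1.79 ± 0.22 on the log2 scale (limma adjusted p = 0.000226), the 17th largest rise of all tested genes. Fos rose by 0.80 ± 0.24 (adjusted p = 0.0178) and Nr4a2 by 0.66 ± 0.14 (adjusted p = 0.00433). Since Fos was tested only because of its level in refed KR, its call and its place in the count are given as a description. The same holds for Nr4a2, which passed the filter through the refed libraries. Its mean FPKM was 0.891 in the fasted libraries and 1.98 in the refed ones. Ier2 fell by 0.51 ± 0.11 (adjusted p = 0.0051), Fosl2 by 0.45 ± 0.15 (adjusted p = 0.033) and Jun by 0.37 ± 0.09 (adjusted p = 0.00895). The fit has 1 residual degree of freedom per gene, so its errors lean on the spread shared across genes, and it takes the response to be the same in both genotypes. Without the filter on low values none of the 6 calls held, with adjusted p from 0.159 to 0.464, and no gene at all was called by limma, against 6207 at an unadjusted p under 0.05.

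Fos, Fosb and Fosl2 together summed to an FPKM of 4.34 in refed KR, 2.10 in refed WT, 2.15 in fasted KR and 2.87 in fasted WT. Jun and Junb together summed to 18.2, 18.6, 21.5 and 23.3 in the same order. Jund, the remaining JUN family gene and not among the 10, lay above both, at an FPKM of 47.1 in refed KR, 54.5 in refed WT, 69.4 in fasted KR and 66.6 in fasted WT. Egr1 made up 27.3% of the summed FPKM of the 10 members in refed KR, 14.1% in refed WT, 4.15% in fasted KR and 3.82% in fasted WT. Jun had the highest FPKM of the 10 in fasted KR and fasted WT, with bounds in fasted WT above those of Junb. In refed KR Egr1 stood highest, with bounds that overlapped those of Jun, and in refed WT Junb and Jun stood highest with overlapping bounds.

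Genotype was compared within each feeding state. In the refed pair Egr1 was 2.49-fold higher in KR (95% counting interval 2.09 to 2.96), the 13th highest ratio of 11953 genes on log2(FPKM + 1). Fos was 2.56-fold higher (1.67 to 3.98) and Fosb 4.90-fold higher (1.69 to 17.2). No member's interval lay below 1 in this pair. Of all tested genes above 0 in both libraries, a set without Fosb, Egr2 and Nr4a1, 7.19% were higher and 21.8% lower by the same rule. By the 2-fold rule on log2(FPKM + 1), Egr1 alone of the 7 was higher, beside 0.167% of tested genes, and none was lower, beside 0.201%.

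In the fasted pair none of these 3 genes differed beyond counting error, with folds of KR over WT of 1.01 for Egr1 (95% counting interval 0.755 to 1.35), 0.668 for Fos (0.386 to 1.14) and 0.565 for Fosb (0.205 to 1.44). Fosl2 was lower in fasted KR than in fasted WT, at a fold of 0.795 (0.667 to 0.948), and so was Jun, at 0.876 (0.800 to 0.959). These 2 of 10 are read beside 24.7% of tested genes lower and 12.4% higher by that rule, a set without Fosb, Egr2 and Nr4a1. None of the 7 tested members was 2-fold apart in the fasted pair, where 0.134% of tested genes were 2-fold higher and 0.109% lower.

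**Figure D3:**
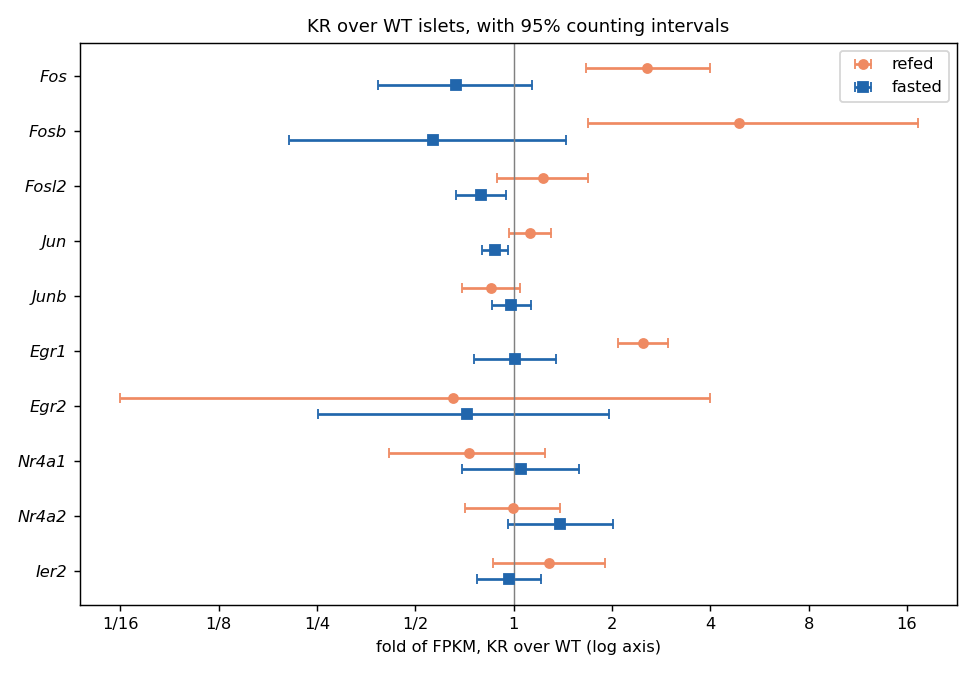
Fold of FPKM in KR over WT islets (horizontal log axis) for each member in the refed pair (circles) and the fasted pair (squares); points are folds of single libraries and bars 95% counting intervals. Egr1, Fos and Fosb lay above 1 in the refed pair, at 2.49, 2.56 and 4.90, with intervals that left out 1.

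Fitted over both feeding states with limma, 0 of the 7 members passed the genotype test, beside 1.26% of 11953 genes called, 0.602% higher and 0.661% lower in KR. Of the 7, 1, Egr1, had an unadjusted p under 0.05, beside 16.4% of tested genes. Egr1 had a fitted difference of 0.58 ± 0.22 SE on the log2 scale (limma adjusted p = 0.246), and Fos of 0.32 ± 0.24 (adjusted p = 0.557). The additive fit counts the unequal genotype ratios of Egr1 and Fos in the refed and fasted pairs as error. With limma-voom on the implied fragments Egr1 was called, at 0.97 (adjusted p = 3.33e-08), and over the 6 alternatives that could test it the adjusted p ran from 3.33e-08 to 0.821.

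Of the islet endocrine genes, Ins1 was higher in KR in the genotype fit, by 1.34 ± 0.16 SE on the log2 scale (limma adjusted p = 0.00792). Its FPKM was 12196 in refed KR, 3498 in refed WT, 7966 in fasted KR and 4320 in fasted WT. Iapp was higher by 0.36 ± 0.05 (limma adjusted p = 0.0145). Gcg, Sst, Ppy and Chga did not pass, at 0.11, 0.16, -0.03 and 0.09, and Ins2 had no value in fasted KR. The part of islet cell content in the members' values was not tested.

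The refeeding response itself was set against its counterpart in the other genotype. On log2(FPKM + 1), Egr1 responded by 2.35 in KR and 1.22 in WT, a difference of 1.14 that was the 15th highest of 11953 genes. Fos responded by 1.35 in KR and 0.26 in WT, a difference of 1.08, which gets no rank because the same refed KR value brought Fos past the filter. In all 19 genes, or 0.159%, had a difference of at least 1, and the median over all tested genes was -0.02. Nr4a2, at 0.55 in KR and 0.77 in WT, and Junb, at -0.23 and -0.04, lay on the other side, with differences of -0.22 and -0.19. Jun, Fosl2 and Ier2 were lowered less in KR than in WT, with differences of 0.33, 0.36 and 0.31. With 1 library per group there is no test of these differences, and they rest on the refed KR library, the shallowest of the 4.

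**Figure D4:**
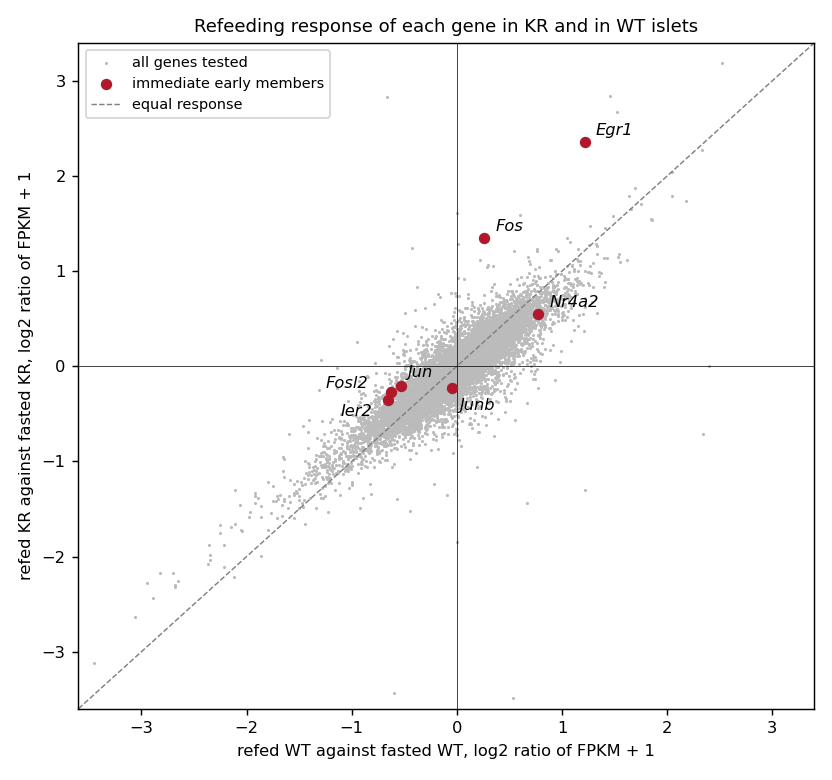
Log2 ratio of FPKM + 1 of refed over fasted islets in WT (horizontal) and KR (vertical) for 11953 genes (grey, 22 lie beyond the axes) and the 7 members tested (red), with a dashed line of equal response. Egr1, at 2.35 in KR and 1.22 in WT, and Fos, at 1.35 and 0.26, lie above the line.

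Promoter sequence is shown for 4 members. Fos was higher after refeeding in KR, with a WT interval that held 1, and Nr4a2 was higher in both genotypes. Nr4a1 is a paralog of Nr4a2 whose folds held 1 in their intervals, and Jun fell. Each line gives the 250 bases before the annotated start on the gene's own strand, from RefSeq on GRCm38.p6, a later build than that of the expression files. The windows are chr12:85473640-85473889 (plus strand) for Fos, chr2:57124004-57124253 (minus) for Nr4a2, chr15:101266596-101266845 (plus) for Nr4a1 and chr4:95052223-95052472 (minus) for Jun. Capitals mark matches on either strand to TGACG, a core of the site that CREB binds, to GCGNGGGCG, the EGR site, and to TATAAA, a core promoter element.
Fos: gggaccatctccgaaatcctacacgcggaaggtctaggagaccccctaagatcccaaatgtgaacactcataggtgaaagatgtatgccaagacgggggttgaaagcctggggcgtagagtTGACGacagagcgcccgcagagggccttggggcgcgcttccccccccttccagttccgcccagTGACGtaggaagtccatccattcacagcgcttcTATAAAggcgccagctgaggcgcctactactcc
Nr4a2: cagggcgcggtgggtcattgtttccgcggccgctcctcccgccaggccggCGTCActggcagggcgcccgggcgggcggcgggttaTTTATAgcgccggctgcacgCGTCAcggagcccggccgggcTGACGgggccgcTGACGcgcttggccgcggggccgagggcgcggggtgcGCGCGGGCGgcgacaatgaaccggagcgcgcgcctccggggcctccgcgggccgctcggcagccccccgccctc
Nr4a1: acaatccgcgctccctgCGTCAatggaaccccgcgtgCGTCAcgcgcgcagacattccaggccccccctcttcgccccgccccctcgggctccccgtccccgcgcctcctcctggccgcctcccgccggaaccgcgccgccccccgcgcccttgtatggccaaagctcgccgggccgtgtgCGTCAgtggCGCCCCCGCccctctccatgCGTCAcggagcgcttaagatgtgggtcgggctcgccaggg
Jun: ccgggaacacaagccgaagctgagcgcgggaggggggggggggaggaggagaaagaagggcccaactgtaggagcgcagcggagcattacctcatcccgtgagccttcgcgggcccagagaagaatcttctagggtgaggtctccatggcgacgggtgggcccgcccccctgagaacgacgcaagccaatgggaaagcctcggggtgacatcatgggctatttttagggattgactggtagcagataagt

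The search also covered TGANTCA, the AP-1 site, and the CArG box that SRF binds, neither of which these 4 windows held. Sites farther upstream, or that differ from the letters searched, were not looked for. No 2 of the matched stretches overlapped. The TATAAA match of Fos lies 33 to 28 bases upstream on the gene's own strand. That of Nr4a2 is TTTATA, on the opposite strand at 164 to 159 bases upstream, and is not read as a core promoter element. Windows of 8 of the 10 members were found, with none for Egr1 and Ier2, whose promoters are therefore not described. TGACG occurred 2 times in the Fos window, 4 times in those of Nr4a2 and Nr4a1 and 1 time in those of Fosb and Junb. It occurred 2 times in some of the 5 windows of Egr2, and was not matched in those of Jun and Fosl2. Over all 32851 windows of this length 17.8% held TGACG, 4.7% GCGNGGGCG, 12.4% TATAAA, 6.75% TGANTCA and 1.47% the CArG box. The CArG box was matched in 4 of the 5 windows of Egr2, some of which share bases. A match is a description of letters, and binding was not measured.

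Other immediate early genes were taken from lists chosen by known function. Of 20 further transcription factors 14 were tested, of which 1 rose after refeeding, 10 fell and 3 did not pass in the limma fit, with a median fitted change of -0.46 against -0.01 for all tested genes. The counts of this and the following lists are read beside the 27.7% of all tested genes called higher and 29.2% called lower, and no list was tested as a group. Myc, a growth factor-induced transcription factor gene, fell by 2.12 ± 0.11 SE on the log2 scale (limma adjusted p = 4.67e-06). Its FPKM was 4.35 in refed KR and 4.35 in refed WT, against 18.6 in fasted KR and 26.4 in fasted WT. Nfil3, a repressor gene, fell by 2.00 ± 0.11, Atf3, a stress-induced factor that can pair with JUN, by 1.76 ± 0.14, and Bhlhe40, a clock repressor gene, by 0.99 ± 0.12. Crem, a cyclic AMP response gene, rose by 0.37 ± 0.08 (adjusted p = 0.00374). Egr3, Egr4 and Nr4a3, the remaining members of the EGR and NR4A families, had an FPKM of 0.186 or less in every library, and Egr4 was listed at 0 in all 4.

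Of 27 immediate early genes that are not transcription factors 23 were tested, of which 3 rose, 10 fell and 10 did not pass, with a median fitted change of -0.29, a share called close to the 56.9% of all tested genes. Plk3, a stress-response kinase gene, fell by 1.89 ± 0.10 SE on the log2 scale (limma adjusted p = 5.02e-06), Sik1, a kinase gene that CREB induces, by 0.85 ± 0.13, and Ier3, an apoptosis regulator gene, by 0.81 ± 0.11. Ctgf, a matrix protein gene, fell by 0.55 ± 0.08. Zfp36l1, also among those that fell, passed the filter on low values through the fasted libraries, so its call is a description. Its FPKM was 0.758 in refed KR, 1.09 in refed WT, 1.77 in fasted KR and 1.76 in fasted WT. Trib1, a pseudokinase gene, rose by 0.59 ± 0.08, Btg2, an antiproliferative gene, by 0.59 ± 0.06, and Gadd45g, a growth arrest gene, by 0.26 ± 0.08. None of the 37 tested genes of these 2 lists passed the genotype test in limma, and the range of the refeeding changes is shown in the plot of fitted changes.

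**Figure D5:**
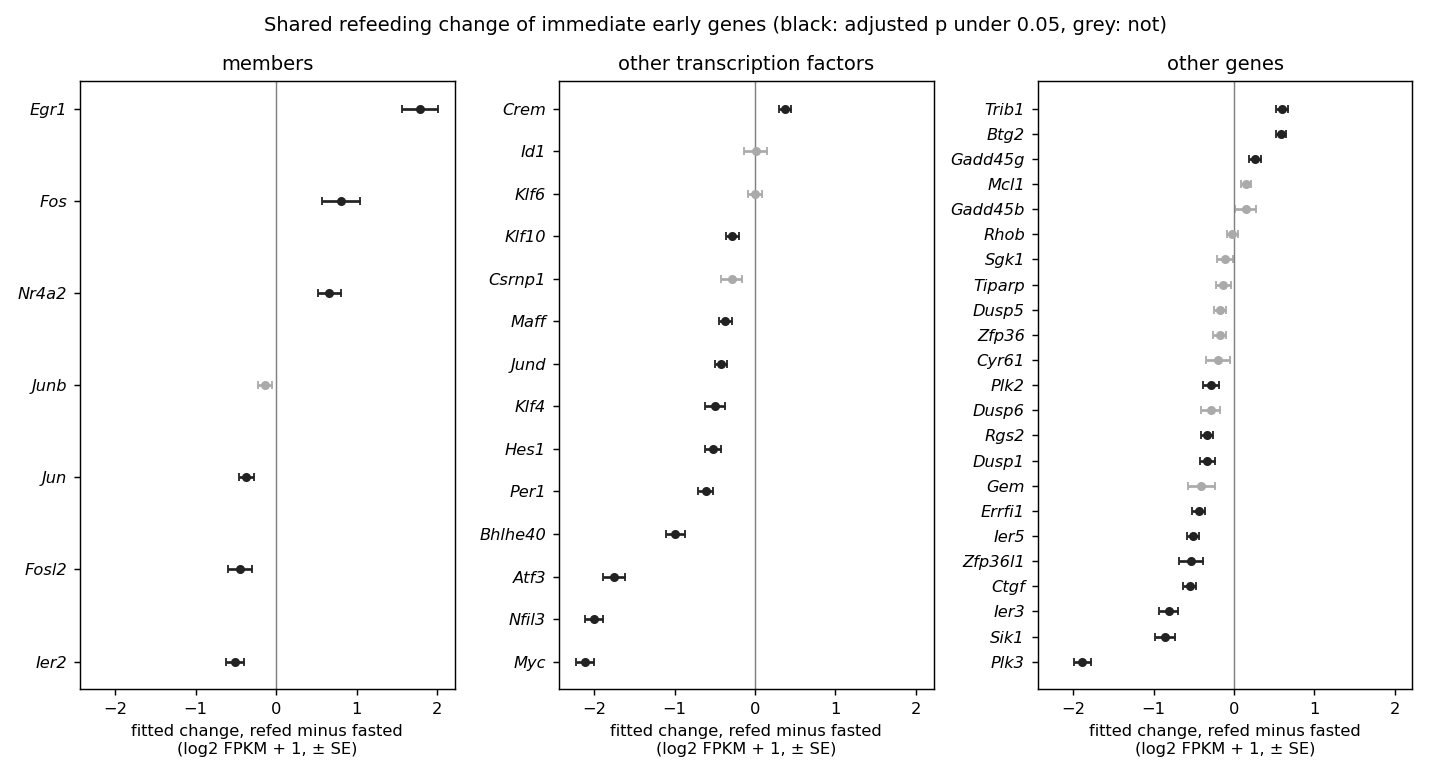
Fitted change, refed minus fasted, on log2(FPKM + 1) (horizontal) of the 7 tested members, 14 further immediate early transcription factors and 23 other immediate early genes; points are limma estimates over 4 libraries, bars the SE, black where the adjusted p is under 0.05 and grey where it is not. Egr1, at 1.79, had the highest value of all those plotted, and Myc, at -2.12, the lowest.

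Genes for the factors and signals that switch immediate early genes on formed 3 lists, read beside 29.2% of all tested genes called lower and 27.7% higher after refeeding. All 7 genes of the CREB list fell, led by Crtc3 and Crtc2, which encode coactivators of CREB, by 1.15 ± 0.08 SE and 0.89 ± 0.07 on the log2 scale (limma adjusted p = 1.46e-05 and 2.41e-05). Atf1, a CREB relative, fell by 0.79 ± 0.07 and Crebbp, an acetyltransferase gene, by 0.33 ± 0.09. Of 6 genes for SRF and its cofactors 3 fell and none rose, namely Srf by 0.76 ± 0.08, Elk3 by 0.41 ± 0.10 and Mkl1 by 0.39 ± 0.09. Of 11 tested genes of calcium and MAP kinase input 6 fell and 1 rose, the p38 gene Mapk14 by 0.76 ± 0.06 and the calcineurin gene Ppp3ca by 0.61 ± 0.07 among those that fell. Camk2d, a calcium-dependent kinase gene, fell by 0.45 ± 0.08, Rps6ka1, a kinase gene downstream of ERK, fell by 0.43 ± 0.13 and its relative Rps6ka3 rose by 0.19 ± 0.07. These lists had medians of -0.33, -0.25 and -0.32, and 0 of their genes passed between genotypes.

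Of 7 tested partners and antagonists of AP-1, 6 fell after refeeding and none rose, with a median of -0.55, beside 29.2% of all tested genes called lower and 27.7% higher. Ddit3, which encodes CHOP, fell by 2.85 ± 0.09 SE on the log2 scale, and the repressor gene Bach1 by 0.55 ± 0.08. Of the small MAF genes Mafk fell by 0.63 ± 0.07 and Mafg fell by 1.003 ± 0.10. Among 4 tested partners of EGR and NR4A proteins 3 fell, the EGR corepressor gene Nab1 by 0.46 ± 0.08 and the retinoid receptor genes Rxra by 0.35 ± 0.08 and Rxrb by 0.27 ± 0.07. Nab2, another EGR corepressor and target gene, did not pass, at -0.05. Of 10 heat shock genes 2 rose and 3 fell, beside 56.9% of all tested genes called in either direction. Hspa1a fell by 1.06 and Hspa1b by 1.15, a pair of near-identical genes whose reads cannot be told apart with certainty. Hspa1a stood at an FPKM of 1.92 in refed KR, 2.24 in refed WT, 3.72 in fasted KR and 7.67 in fasted WT. Dnaja1, a co-chaperone gene, rose by 0.57 and the chaperone gene Hsp90aa1 by 0.28, whereas Hsph1 fell by 0.22. Hsp90aa1 was also 1 of 2 genes of that list that fell in KR, by 0.30 (limma adjusted p = 0.0421), beside Hspd1, a mitochondrial chaperone gene, which fell by 0.32 (limma adjusted p = 0.0334).

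Genes whose pattern over the 4 libraries was nearest to that of a member were found by Euclidean distance of log2(FPKM + 1), centred per gene, among 8479 named genes whose mean FPKM reached 5, without the members, small RNA genes and genes known only by a clone or model name. The 5 nearest to Egr1 were Txnip, at a distance of 0.50, Defb1, Tnfrsf23, Slitrk6 and Dapl1, at 0.74 to 0.82. Those nearest to Fos were Mrpl33, at 0.24, Acyp2, Spata24, Acta2 and Rgs16, at 0.37 to 0.44. Fos and Egr1 were 1.02 apart. With 4 libraries these distances are a description.

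Markers of other cell types are read beside the 29.2% of all tested genes called lower and 27.7% called higher after refeeding. The 7 endothelial genes had summed FPKM of 14.9 in refed KR, 16.6 in refed WT, 17.9 in fasted KR and 24.5 in fasted WT. Of 5 tested, 3 fell after refeeding and 1, Esam, rose. Among those that fell, Cdh5 and Kdr passed the filter on low values through the fasted libraries, so their calls are a description. Cdh5 stood at 0.630 in refed KR, 0.816 in refed WT, 1.78 in fasted KR and 2.82 in fasted WT. Kdr stood at 0.856, 1.12, 1.52 and 2.78. Esam had the highest FPKM of the 7 in every library, from 7.75 to 9.84. The 7 stellate and fibroblast genes summed to 29.1, 22.5, 37.0 and 35.1 in the same order, with 5 of 6 tested lower after refeeding and Acta2 higher. The 7 macrophage genes summed to 260.7, 271, 298 and 302, with 2 of 7 lower. Duct genes summed to 547, 605, 488 and 512, mostly Krt7, with 2 of 4 tested higher. Krt19, among those higher, passed the filter through the refed libraries, so its call is a description. Acinar genes summed to 59.7, 48.4, 40.7 and 35.2, mostly Cela1, the only one tested, which rose. Cpa1, Pnlip, Prss1 and Amy2b lay at 0.201 or less and Cela2a at 0.261 or less. Ctrb1 stood at 1.62 in refed KR, 0.993 in refed WT, 0.838 in fasted KR and 0 in fasted WT. In bulk tissue fewer cells of a type and less RNA per cell cannot be told apart, and the part of these cells in the members' values was not tested.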

How the data were processed

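Poly-A RNA of pooled islets was sequenced in 4 libraries, 1 for each group. The submitters' processing notes name bcl2fastq 1.8.4, TopHat2 2.0.4 and the mm9 build. What the authors deposited, per the file headers, is FPKM with bounds and a status. For the program, annotation and library totals behind the FPKM the entry is: not given in the sources used here. Rows of one symbol were summed, and values without status OK were treated as missing, which left 189 symbols out of comparisons.

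The squared ratio of FPKM to its standard error gave implied fragments, within 0.05 of a whole number for 34 of 40 member values. Intervals of folds are exact (Clopper-Pearson) from these, rounded, and cover counting error only. Nr4a2 was off a whole number in every library, so its intervals are approximate. Its implied fragments were 59.4 in refed KR, 99.3 in refed WT, 74.2 in fasted KR and 52.3 in fasted WT. Deposited starts count from 0 (601 of 631 microRNA lengths match), so 1 was added. Comparisons across genes used log2(FPKM + 1), which understates changes of low genes, and genes whose mean FPKM reached 1. The additive model of feeding and genotype was fitted with limma 3.58.1 (R 4.3.3, mean-variance trend, prior worth 7.58 degrees of freedom), and genes at an adjusted p under 0.05 were called. Tested on simulated refeeding data with 11953 genes, it recovered 98% of 50 genes changed by 0.5 on the log2 scale. Each simulated gene had the spread that the trend gives at its level, and the same response in both genotypes. The share recovered is therefore no measure of power for the members. P-values rest on how far the 4 pooled libraries depart from an equal response in both genotypes, and on the spread shared across genes. They do not measure spread between libraries of one group, since each group holds 1.

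The members, lists and tests were chosen with earlier results of these data known. From the lists were named genes at least 2-fold apart in a pair and the largest calls in each direction, up to 4 a list. Nab2 and the low members named beside them were chosen after their values were seen. Alternatives changed the pseudocount, filter, scaling, trend, prior and test.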

Additional observations from a re-analysis of the deposited data

Results flagged for a closer look

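For some members the effect of 1 factor had opposite signs at the levels of the other. With 1 library per group these differences were not tested, and such reversals are common, since the genotype ratios of the refed and fasted pairs had opposite signs in 38.3% of 11953 tested genes and the refeeding ratios of KR and WT in 14.4%. Among the 10 members the genotype ratio on log2(FPKM + 1) did so for 7. It was higher in the refed than in the fasted pair by 1.08 for Fos (0.86 refed, -0.22 fasted), by 0.44 for Fosb (0.36, -0.08), by 0.36 for Fosl2 (0.15, -0.21), by 0.33 for Jun (0.15, -0.18) and by 0.31 for Ier2 (0.27, -0.04). For Nr4a1 the refed minus fasted difference was -0.26 (-0.23 refed, 0.03 fasted) and for Nr4a2 it was -0.22, with a refed ratio of -0.0034 whose sign turned when libraries were rescaled. The refeeding ratio had opposite signs for 2 members, Fosb (0.35 in KR, -0.09 in WT, a difference of 0.44) and Nr4a1 (-0.02 in KR, 0.24 in WT, a difference of -0.26). Of these, Fos and Fosb alone had a counting interval that left out 1 in the refed pair, and neither had one in the fasted pair.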

How the results depend on the processing

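No paired analysis was possible because each group holds 1 library. Of the 6 member calls for refeeding, each held in every alternative that tested it except the one without a filter on low values, where limma called 0 genes, 0 members higher and 0 lower (6207 genes at an unadjusted p under 0.05). A filter at a mean FPKM of 5 left Jun and Junb alone, with 0 called higher and 1 lower. The count of genes called between genotypes, 151, was 0 without the filter (1918 unadjusted), 252 with the filter at 5, 5 without trend, 228 with a robust prior and 750 with limma-voom, which also called 1 member, Egr1. With a pseudocount of 0.1, 2 members were 2-fold higher and 1 lower in refed WT against fasted WT, and 2 were higher in refed KR against refed WT. With the filter at 5, 0 members were 2-fold higher in those 2 pairs and in refed KR against fasted KR. Rescaling by the median of ratios changed no call of a member, and turned the sign of 3 uncalled values near 0, the fitted genotype difference of Jun (0.0251), Nr4a2 in refed KR against refed WT (0.03) and Junb in fasted KR against fasted WT (0.0041). In single ratios 5 values moved beyond counting error, all away from 0 with the pseudocount of 0.1, among them Fos in KR at 2.28. Depth limits Egr2 and Fosb, with 2 to 15 fragments a library.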
